A study of Mus musculus with 11 samples.

Results

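The MHC class II genes and their regulators were described in the aortic arch of mice that carry a mutant Tgfbr2 allele and of their wild-type littermates. They are 10 genes of the 48709 mouse genes in the count table, found by symbol: the invariant chain gene Cd74, the chain genes H2-Aa, H2-Ab1 and H2-Eb1, the peptide loading genes H2-DMa, H2-DMb1 and H2-DMb2, the coactivator Ciita, and Rfx5 and Rfxank of the regulatory factor X complex. The genes were chosen with the difference between the genotypes already known, so that difference is given here as a description, with no test. All 10 were among the 14757 genes that passed the filter on low counts.

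RNA was sequenced in bulk from whole aortic arches dissected at postnatal day 11. The 6 Het libraries came from Tgfbr2-G357W/+ mice, which carry 1 allele with the G357W substitution in the type II receptor for TGF-beta and model Loeys-Dietz syndrome type II, an inherited connective tissue disorder with aneurysms. The 5 WT libraries came from Tgfbr2-+/+ littermates. No group was treated, the labels name no Cre or tissue-specific promoter, strain or sex, and each library was taken as 1 mouse.

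Total counts per library were 13113467 to 19327935. Levels are in CPM, counts scaled to the library's total times its TMM factor, which corrects for composition; a count of 0 allows up to 3 counts, or 0.154 to 0.230 CPM depending on the library. As cell type the label gives VSMC and EC, the usual short forms for vascular smooth muscle and endothelium. The summed level of 7 smooth muscle markers was 30395 to 41405 CPM in Het and 33528 to 38033 CPM in WT, and that of 8 endothelial markers was 343.0 to 581.6 CPM in Het and 381.6 to 511.7 CPM in WT. Tgfbr2 was at 30.9 to 51.3 CPM in Het and 38.2 to 48.7 CPM in WT, and the counts do not separate its alleles. The groups differ in sex-linked transcripts: Xist was at 74.9 and 77.2 CPM in Het 1 and Het 2, at most 0.733 CPM in Het 3 to 6, and at 58.3 to 78.4 CPM in all 5 WT libraries. Ddx3y, on the Y chromosome, was at 86.2 to 110.3 CPM in Het 3 to 6 and at 0 counts elsewhere. As WT has no Y-positive library, sex and genotype cannot be told apart for these 4. The deposited column names also hold a number, 6 in Het 1, 2, 4 and 5 and WT 3 and 7 in Het 3 and 6 and WT 1, 2, 4 and 5, which the labels do not explain.

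MHC class II molecules are pairs of an alpha and a beta chain that display peptides from endosomes to CD4 T cells. They are carried mainly by dendritic cells, macrophages and B cells, and interferon gamma can induce them in other cells, endothelium among them. The invariant chain holds the new pair until it reaches the endosome, H2-DM then exchanges the last fragment of the invariant chain for a peptide, and transcription of all these genes depends on Ciita, which binds no DNA itself and is recruited by factors bound to the X and Y boxes of their promoters. The X box is bound by the regulatory factor X complex of Rfx5, Rfxank and Rfxap together with Creb1, and the Y box by the NF-Y complex.

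The promoters are printed to show where letters like those of these boxes occur, and any tie to the members' levels was not tested. Promoters of 7 of the 10 genes were matched by symbol in the RefSeq table used here (GRCm38.p6), and the windows below run from 140 to 31 bases before the annotated start on the gene's own strand, 5′ to 3′. Capitals mark matches, on either strand, to 3 patterns: GNNACNGAT for the core of the X box, ATTGG for the core of the Y box, and CTGATTGG for an extended Y box, which contains the core of the Y box. The windows are chr17:34305727-34305836 on the plus strand for H2-Eb1, chr17:34287854-34287963 on the minus strand for H2-Aa, chr17:34153051-34153160 on the plus strand for H2-DMb1, chr17:34145109-34145218 on the plus strand for H2-DMb2 and chr8:70139228-70139337 on the minus strand for Rfxank.
H2-Eb1: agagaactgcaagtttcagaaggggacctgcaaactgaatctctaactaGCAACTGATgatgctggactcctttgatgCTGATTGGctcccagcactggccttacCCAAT
H2-Aa: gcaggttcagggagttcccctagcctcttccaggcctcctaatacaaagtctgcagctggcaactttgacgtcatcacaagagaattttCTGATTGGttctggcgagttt
H2-DMb1: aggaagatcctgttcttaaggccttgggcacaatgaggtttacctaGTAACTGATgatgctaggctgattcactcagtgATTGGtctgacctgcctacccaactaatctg
H2-DMb2: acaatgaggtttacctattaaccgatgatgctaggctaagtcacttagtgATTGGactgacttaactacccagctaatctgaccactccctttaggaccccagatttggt
Rfxank: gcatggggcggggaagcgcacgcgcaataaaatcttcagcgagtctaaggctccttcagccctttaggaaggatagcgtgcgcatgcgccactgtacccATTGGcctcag

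In H2-Eb1, a chain gene, the X box pattern ran from 91 to 83 bases before the start, and the extended Y box from 62 to 55. A Y core on the opposite strand lay from 35 to 31. In H2-DMb1, a peptide loading gene, the X box pattern ran from 94 to 86 and the Y core from 61 to 57 bases before the start. These 2 genes hold matches to both patterns in the same order and at nearly the same distance. H2-Aa had the extended Y box, from 51 to 44, with no match to the X box letters in its window. Only exact matches were searched, so a missing match does not show that a gene lacks the box. H2-DMb2 had a Y core from 90 to 86 and no exact match to the X box letters. Its window holds the letters ttaaccgat before this core, and they depart from the X box pattern only at the first base. Rfxank had Y cores from 165 to 161 and from 41 to 37, Rfx5 had reverse Y cores from 113 to 109 and from 54 to 50, and H2-DMa had 1 Y core, from 198 to 194. The RefSeq starts of H2-DMa (chr17:34125518) and H2-DMb2 (chr17:34145249) lie inside the GENCODE spans given below. The bases before the GENCODE starts of these genes were not searched. Cd74, H2-Ab1 and Ciita are named only.

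The letters themselves are of unequal rarity. Of the 32851 full-length promoters in the table, 7.82% held the X box pattern on either strand, 37.4% the Y core and 4.10% the extended Y box. An X box pattern followed within 50 bases by a Y core on the gene's own strand was found in 69 promoters, 0.21% of them, from 68 genes of which 8 have an H2 symbol. Of these 68 genes 36 were tested, and edgeR's quasi-likelihood test called 4 lower in Het and 1 higher, beside 2.38% lower and 2.65% higher over all tested genes, and 2 of the 4 are members chosen for being lower. The members H2-Eb1 and H2-DMb1, the testis-enriched chaperone gene Hspa2 (log2 fold change -0.53 ± 0.11, edgeR adjusted p = 0.00865) and Gpr108 (-0.30 ± 0.08, edgeR adjusted p = 0.0359) were lower, and Ube2c, a ubiquitin-conjugating enzyme of mitosis, was higher (1.197 ± 0.27, edgeR adjusted p = 0.0168). The class I gene H2-D1 was also among the 68, at 104.7 ± 9.14 CPM in Het (SD, n = 6) and 116.3 ± 23.7 CPM in WT (SD, n = 5), with a log2 fold change of -0.15 ± 0.12 (SE, edgeR adjusted p = 0.526). A match is a description of letters, and binding of a factor was not measured.

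**Figure D1:**
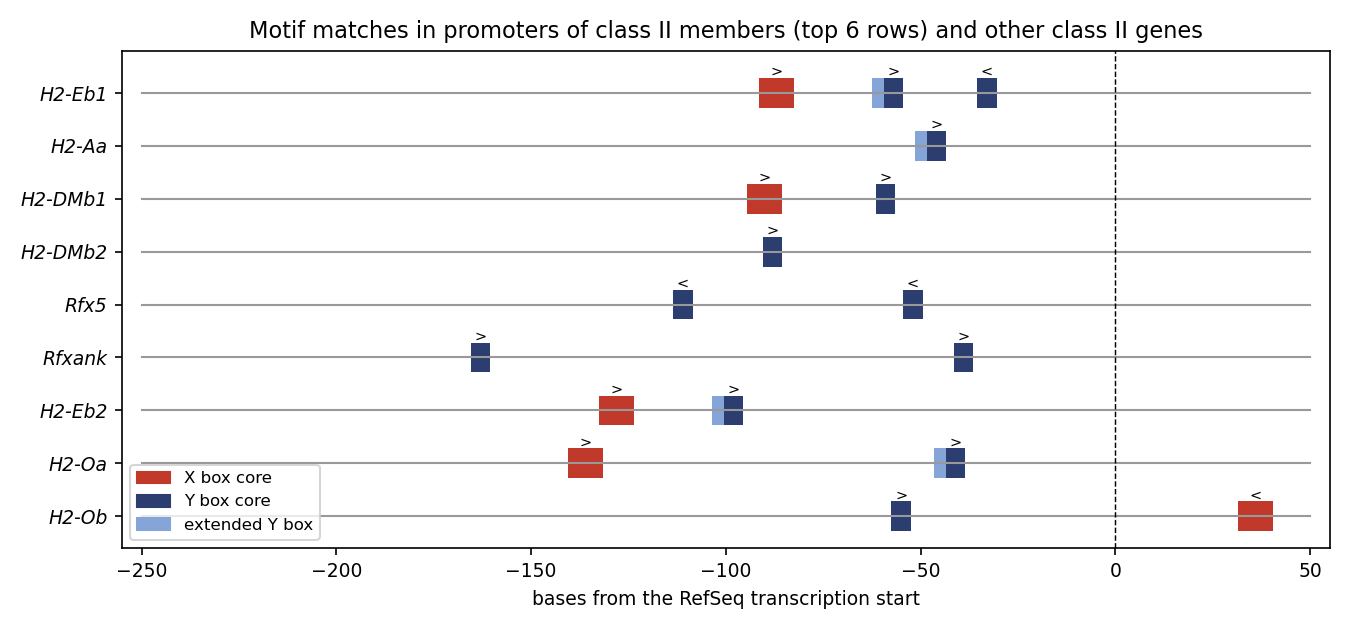
Matches to the X box core, the Y box core and the extended Y box in the promoters of 6 members (top 6 rows) and of 3 other class II genes, with the distance from the RefSeq start in bases on the x axis and the strand relative to the gene marked by > and <. H2-Eb1 and H2-DMb1 hold an X box match from 91 and 94 bases before the start, each followed by a Y core.

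Cd74, the invariant chain, was the most abundant of the 10 genes. Its level was 144.1, 105.9, 99.5, 99.3, 91.2 and 105.3 CPM in Het 1 to 6, against 409.2, 413.5, 527.7, 271.6 and 391.4 CPM in WT 1 to 5. Every Het library lay below every WT library; Het 1 was the highest of its group and WT 4 the lowest of its own. The mean was 107.6 ± 18.7 CPM in Het (SD, n = 6) and 402.7 ± 91.0 CPM in WT (SD, n = 5), so that Het held 26.7% of the WT level, a log2 fold change of -1.90 ± 0.15 (SE). In bulk RNA, fewer cells that carry a transcript and less of it per cell cannot be told apart.

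Among the classical chains, H2-Aa (ENSMUSG00000036594, chr17:34282744-34287823 of GRCm38, minus strand) encodes the alpha chain of the I-A molecule. It was at 35.9, 24.1, 27.6, 19.3, 26.9 and 21.3 CPM in Het 1 to 6, against 77.5, 80.1, 102.2, 79.6 and 95.7 CPM in WT 1 to 5. The groups did not overlap, and the lowest WT library, WT 1, stood above the highest Het library, Het 1, by more than the whole range of the Het group. The log2 fold change was -1.75 ± 0.14, with 25.9 ± 5.86 CPM in Het and 87.0 ± 11.2 CPM in WT.

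H2-Ab1 (ENSMUSG00000073421, chr17:34257689-34269419, plus strand) encodes the beta chain of the same I-A molecule. Its level was 41.8, 31.2, 31.4, 22.2, 23.7 and 19.1 CPM in Het 1 to 6, against 71.1, 92.8, 120.5, 66.9 and 96.8 CPM in WT 1 to 5. No Het library reached a WT library, with Het 1 again the highest of its group and WT 3 the highest of all. Its mean was 28.2 ± 8.27 CPM in Het and 89.6 ± 21.6 CPM in WT, a log2 fold change of -1.67 ± 0.19.

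H2-Eb1 (ENSMUSG00000060586, chr17:34305867-34316674, plus strand), which carries the X and Y boxes shown above, encodes the beta chain of the I-E molecule. It was at 20.5, 16.3, 16.5, 11.4, 16.5 and 13.1 CPM in Het 1 to 6, against 42.4, 55.05, 75.2, 49.3 and 63.2 CPM in WT 1 to 5. Again no library of one group entered the range of the other, and the order of Het 1 and WT 3 at the top of their groups was that of H2-Ab1. The mean was 15.7 ± 3.17 CPM in Het and 57.0 ± 12.7 CPM in WT, a log2 fold change of -1.86 ± 0.16. H2-Ea-ps, the annotated alpha chain partner of H2-Eb1 and a pseudogene in this annotation, had 0 counts in all 11 libraries.

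The proportions of the 4 genes to each other varied among libraries of each genotype and overlapped between the genotypes. Counts of Cd74 were 1.58 ± 0.274 times those of the 3 chains summed in Het (range 1.32 to 1.96) and 1.73 ± 0.290 times in WT (range 1.39 to 2.14), and the ranges overlapped. Per kb of exon, H2-Aa stood at 0.636 ± 0.101 of the H2-Ab1 level in Het and 0.673 ± 0.0991 in WT. H2-Eb1 stood at 0.756 ± 0.123 of the H2-Ab1 level in Het and 0.846 ± 0.0779 in WT. These ratios overlapped between the groups, whereas each of the 4 levels did not. The ratios per kb depend on the length used. By the longest transcript in place of all exons, mean H2-Aa was 8.03 and H2-Ab1 23.3 CPM per kb in Het. In WT these means were 27.0 and 73.9 CPM per kb.

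The peptide loading genes divided. H2-DMb1 (ENSMUSG00000079547, chr17:34153072-34160230, plus strand), a beta chain of H2-DM, was at 15.8, 14.3, 15.8, 14.5, 16.2 and 12.4 CPM in Het 1 to 6, against 46.2, 40.7, 48.5, 32.6 and 36.3 CPM in WT 1 to 5. Its Het libraries were the closest together of any member, with an SD of 9.51% of the mean, and all lay below WT 4, the lowest WT library. The log2 fold change was -1.46 ± 0.12, with 14.8 ± 1.41 CPM in Het and 40.9 ± 6.63 CPM in WT.

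H2-DMa (ENSMUSG00000037649, chr17:34119541-34139101, plus strand) encodes the alpha chain of H2-DM. It was at 8.78, 9.28, 9.02, 6.76, 9.57 and 6.26 CPM in Het 1 to 6, against 13.4, 17.6, 18.7, 16.0 and 17.1 CPM in WT 1 to 5. The groups did not overlap, but the fold change was the smallest among the members that were lower throughout. Het held 49.99% of the WT mean, 8.28 ± 1.41 CPM against 16.6 ± 2.01 CPM, a log2 fold change of -0.999 ± 0.15. Of the 75-base stretches of its exons, 7.46% also occur in Brd2, which lies on the opposite strand and was at 108.1 ± 9.37 CPM in Het and 105.2 ± 28.3 CPM in WT, and the libraries do not mark strand. How much of the H2-DMa count comes from Brd2 was not tested.

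H2-DMb2 (ENSMUSG00000037548, chr17:34143307-34151555, plus strand), the neighbouring beta chain gene, was nearly absent. Its counts were 29, 11, 8, 11, 4 and 1 in Het 1 to 6, against 12, 13, 15, 4 and 12 in WT 1 to 5. The groups overlapped, with both the highest and the lowest library in Het, and the log2 fold change of 0.07 ± 0.60 covers a wide range in either direction. Of its 75-base stretches 16.2% also occur in other genes, 14.6% in H2-DMb1, and 15.8% of those of H2-DMb1 occur in H2-DMb2, so that the split of reads between the pair is uncertain.

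The proportion of H2-DM to the chains was higher in Het on average, though the ranges overlapped. H2-DMa and H2-DMb1 counts summed to 0.340 ± 0.0531 of the 3 chains in Het (0.250 to 0.402) and to 0.250 ± 0.0393 in WT (0.209 to 0.312). Within H2-DM, the H2-DMa level per kb was 0.271 ± 0.0314 of that of H2-DMb1 in Het (0.227 to 0.316) and 0.202 ± 0.0388 in WT (0.142 to 0.239). Both ratios follow from the members' own differences, which were smallest for H2-DMa.

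Ciita (ENSMUSG00000022504, chr16:10480059-10528418, plus strand), the coactivator on which class II transcription depends, was scarce and lower in Het. It was at 3.76, 1.08, 2.27, 2.46, 2.27 and 3.50 CPM in Het 1 to 6, against 7.67, 13.2, 8.82, 11.1 and 6.27 CPM in WT 1 to 5. Even the lowest WT library, WT 5, stood above the highest Het library, Het 1. The values rest on 15 to 52 counts per Het library and 84 to 197 counts per WT library, and gave 2.56 ± 0.969 CPM in Het, 9.40 ± 2.75 CPM in WT and a log2 fold change of -1.88 ± 0.28. Set against the 3 chains, Ciita counts were 3.82 ± 1.69 percent of theirs in Het and 4.17 ± 1.52 percent in WT, with overlapping ranges. Dexi, on the opposite strand, shares 0.765% of the 75-base stretches of Ciita.

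Rfx5 (ENSMUSG00000005774, chr3:94954075-94961561, plus strand), the DNA-binding subunit of the regulatory factor X complex, did not separate the genotypes. Its level was 1.70, 2.95, 2.64, 3.38, 3.41 and 2.96 CPM in Het 1 to 6, against 4.89, 4.75, 2.67, 4.62 and 3.28 CPM in WT 1 to 5. WT 3 and WT 5 lay within the range of the Het libraries, while Het 1 was the lowest of all. The log2 fold change was -0.50 ± 0.24, with 2.84 ± 0.630 CPM in Het and 4.04 ± 1.00 CPM in WT. B230398E01Rik overlaps 26.8% of its exon length on the opposite strand.

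Rfxank (ENSMUSG00000036120, chr8:70130794-70139154, minus strand), another subunit of the complex, was at 33.0, 27.8, 27.2, 35.5, 35.3 and 32.6 CPM in Het 1 to 6, against 21.4, 27.6, 32.4, 31.8 and 31.6 CPM in WT 1 to 5. The groups overlapped over most of their range, with WT 1 the lowest. Its log2 fold change was 0.14 ± 0.12, with 31.9 ± 3.59 CPM in Het and 29.0 ± 4.66 CPM in WT. Nr2c2ap overlaps 33.8% of its exon length on the opposite strand, and it was at 4.71 ± 0.385 CPM in Het and 3.58 ± 0.848 CPM in WT.

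**Figure D2:**
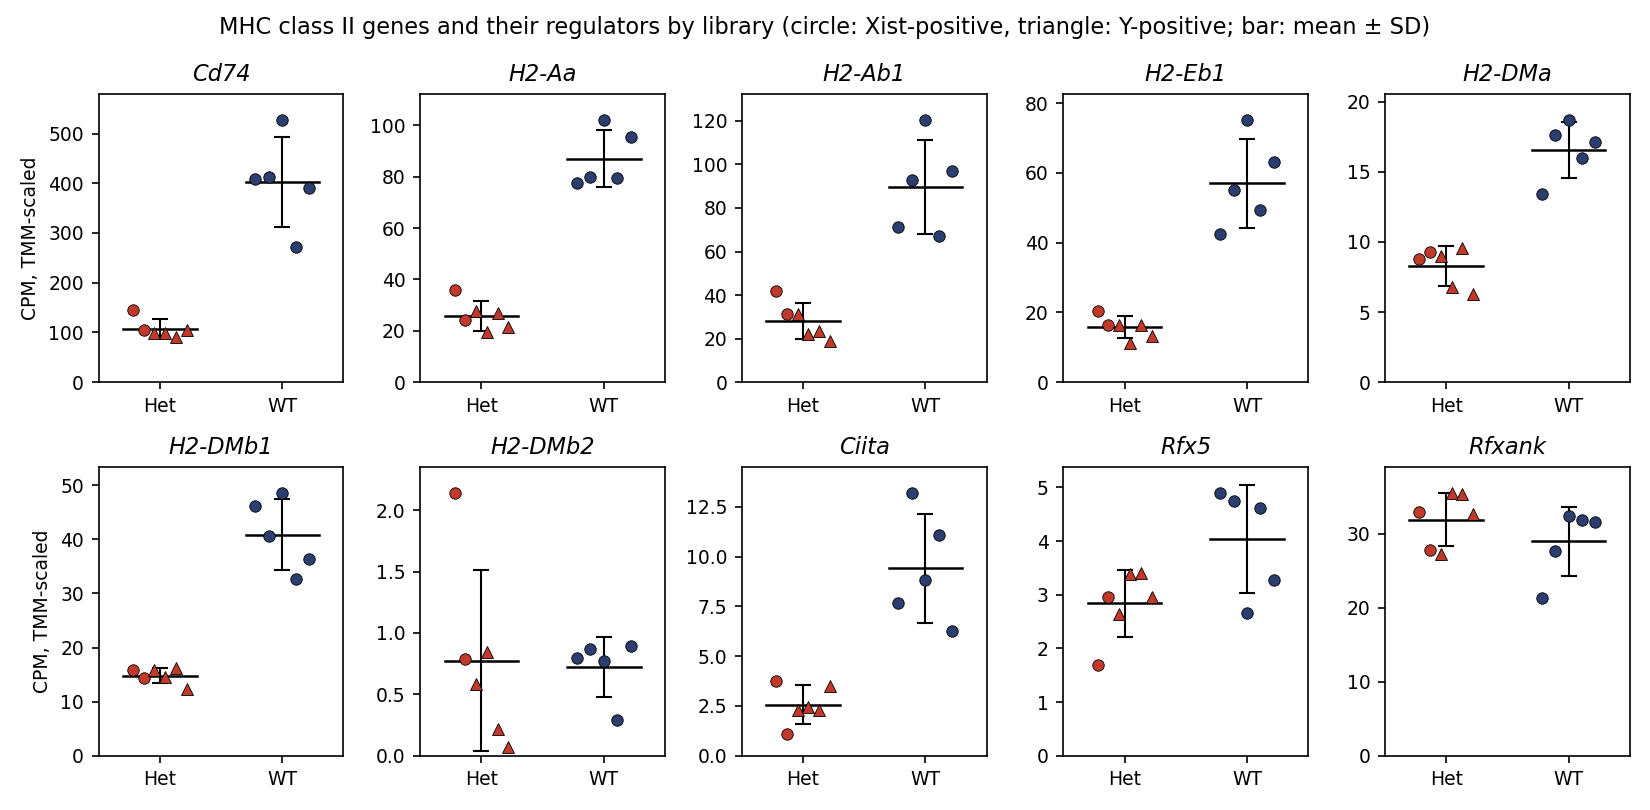
CPM (y axes, each from 0) of the 10 genes in the 6 Het libraries (red, left) and the 5 WT libraries (blue, right); circles are Xist-positive and triangles Y-positive libraries, and bars give mean ± SD. The Het points lie below all WT points for Cd74, H2-Aa, H2-Ab1, H2-Eb1, H2-DMa, H2-DMb1 and Ciita, and overlap them for H2-DMb2, Rfx5 and Rfxank.

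Counted together, 7 of the 10 genes were past an edgeR adjusted p of 0.05 and lower in Het, 0 were higher and 3 were not past it. Over all 14757 tested genes, 2.38% were lower and 2.65% higher by the same measure, 5.03% in all. The same 7 genes had every Het library below every WT library, a separation found in 2.22% of all tested genes. Nothing is read from these counts, since the genes were chosen from this comparison. The median log2 fold change of the 10 genes was -1.57, with a range from -1.90 to 0.14, beside a median of -0.0046 over all tested genes.

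The plot of levels by library marks the sex-linked transcripts because the groups are not balanced for them. In the 2 Xist-positive Het libraries Cd74 was at 105.9 and 144.1 CPM, and in the 4 Y-positive ones at 91.2 to 105.3 CPM, both ranges below the lowest WT value. H2-Ab1 had 31.2 and 41.8 CPM in the Xist-positive Het libraries and 19.1 to 31.4 CPM in the Y-positive ones. With a sex score in the fit, the log2 fold change was -1.70 ± 0.21 for Cd74, -1.54 ± 0.19 for H2-Aa, -1.29 ± 0.23 for H2-Ab1, -1.64 ± 0.23 for H2-Eb1, -1.44 ± 0.18 for H2-DMb1, -0.88 ± 0.21 for H2-DMa and -1.98 ± 0.43 for Ciita. In the 7 Xist-positive libraries alone it was -1.68 ± 0.24 for Cd74 and -1.95 ± 0.47 for Ciita. That all 7 are lower among libraries of like Xist level follows from the groups not overlapping, and 2 Het libraries stand on that side; with the score 6 were past the threshold, of 62 higher and 61 lower genes overall. Among Xist-positive libraries 4 were, without H2-Ab1, H2-DMa and Ciita, of 19 higher and 15 lower genes.

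With the number from the column names as a covariate, Cd74 had a log2 fold change of -2.01 ± 0.15 and Ciita -1.78 ± 0.31. Since the groups do not overlap, the 7 genes were also lower in Het among libraries of the same number. H2-DMb2 turned with these settings: its log2 fold change was 1.01 ± 0.65 with the sex score, -0.49 ± 0.73 with the column number and -0.56 without Het 1. It is given no direction.

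**Figure D3:**
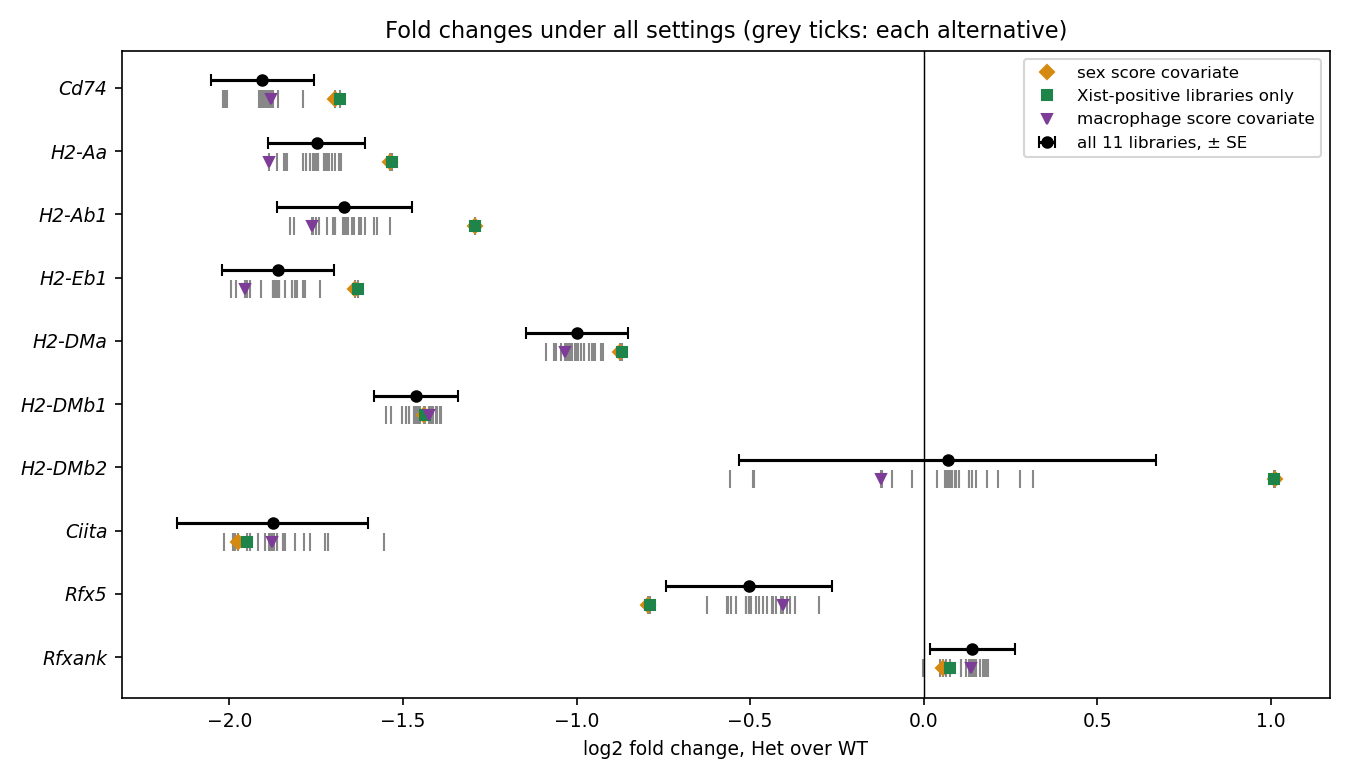
Log2 fold change of Het over WT (x axis) for each of the 10 genes; black points with bars are the fit of all 11 libraries ± SE, grey ticks are the alternative settings, and coloured marks are the sex score, Xist-positive and macrophage score settings. The ticks of 7 genes lie wholly left of 0, from -2.02 to -0.87, as do those of Rfx5, while those of H2-DMb2 run from -0.56 to 1.01.

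Levels of different genes were compared per kb of exon. In Het the order was Cd74 at 64.1 ± 11.1 CPM per kb, H2-Ab1 at 11.0 ± 3.22, H2-DMb1 at 8.82 ± 0.839, H2-Eb1 at 8.08 ± 1.63, Rfxank at 8.04 ± 0.906, H2-Aa at 6.81 ± 1.54, H2-DMa at 2.40 ± 0.408, Rfx5 at 0.516 ± 0.115, H2-DMb2 at 0.443 ± 0.422 and Ciita at 0.268 ± 0.102 CPM per kb (SD, n = 6). From H2-Ab1 to H2-Aa, and from Rfx5 to Ciita, each step between neighbours was smaller than the sum of their SDs, and the other steps were larger. In WT the order was Cd74 at 239.8 ± 54.2 CPM per kb, H2-Ab1 at 34.9 ± 8.43, H2-Eb1 at 29.3 ± 6.55, H2-DMb1 at 24.3 ± 3.94, H2-Aa at 22.9 ± 2.94, Rfxank at 7.30 ± 1.17, H2-DMa at 4.80 ± 0.583, Ciita at 0.986 ± 0.288, Rfx5 at 0.735 ± 0.183 and H2-DMb2 at 0.414 ± 0.141 CPM per kb (SD, n = 5). Here the steps from H2-Ab1 to H2-Aa and from Ciita to H2-DMb2 were smaller than the sum of the neighbours' SDs, barely so between Rfx5 and H2-DMb2. Rfxank stood among the chains in Het and below all of them in WT, and Ciita stood last in Het and above Rfx5 in WT.

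The remaining class II genes of the mouse were close to absent. H2-Oa and H2-Ob, which encode the inhibitor of H2-DM in B cells, had 27 and 88 counts over all 11 libraries, and H2-Eb2, a further beta chain gene, had 1. None passed the filter, and no direction is given.

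No other factor of the class II promoter complex, nor any of its coactivators, passed the threshold. Of 10 tested genes 0 were higher and 0 lower by edgeR's quasi-likelihood test, by DESeq2, by limma voom and by limma trend, and 0 had an unadjusted p under 0.05. Their median log2 fold change was -0.10. Rfxap, the remaining subunit of the regulatory factor X complex, was at 4.16 ± 1.37 CPM in Het and 5.25 ± 2.80 CPM in WT (log2 fold change -0.34 ± 0.32, edgeR adjusted p = 0.624). The NF-Y subunits Nfya, Nfyb and Nfyc had log2 fold changes of -0.19 ± 0.17, -0.14 ± 0.10 and -0.11 ± 0.11. Creb1, which binds beside the X box complex, was at 20.6 ± 1.71 CPM in Het and 17.3 ± 2.62 CPM in WT (0.25 ± 0.12, edgeR adjusted p = 0.271).

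The genes listed here for the route from interferon gamma to Ciita likewise did not pass the threshold. Of 10 tested genes of 12, 0 were higher and 0 lower by edgeR, DESeq2, limma voom and limma trend, and 0 had an unadjusted p under 0.05, with a median log2 fold change of 0.035. Ifng itself had 0 counts in every library, which allows up to 0.154 to 0.230 CPM. Irf1, a transcription factor that acts at the interferon-responsive promoter of Ciita, was at 31.9 ± 4.05 CPM in Het and 33.3 ± 5.80 CPM in WT (log2 fold change -0.06 ± 0.13, edgeR adjusted p = 0.853). A difference of the size of that in Ciita was therefore not seen in Irf1, and a p that misses the threshold does not show that its levels were alike.

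Class I presentation, which shares the MHC region and the interferon response but uses Nlrc5 in place of Ciita, also had no gene past the edgeR threshold. Of 10 tested genes 0 were higher and 0 lower by edgeR, with 1 higher and 2 lower at an unadjusted p under 0.05; DESeq2 called 1 lower, the peptide trimming enzyme Erap1 (adjusted p = 0.020), and limma voom and limma trend called 0. Every Het library of Erap1 (19.8 to 22.6 CPM) lay below every WT library (23.2 to 26.5 CPM), a separation found in 2.22% of all tested genes. Its log2 fold change was -0.30 ± 0.09 (edgeR adjusted p = 0.0786). The median log2 fold change of the list was 0.015. Nlrc5 was at 3.93 ± 1.05 CPM in Het and 3.37 ± 1.47 CPM in WT (log2 fold change 0.21 ± 0.29, edgeR adjusted p = 0.760). B2m, the light chain of class I molecules, was at 181.1 ± 29.8 CPM in Het and 129.2 ± 49.0 CPM in WT (0.49 ± 0.22, edgeR adjusted p = 0.238), and the class I heavy chain H2-K1 at 102.1 ± 6.22 CPM in Het and 97.96 ± 26.5 CPM in WT (0.06 ± 0.13).

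Among genes of endosomal processing, 7 proteases with the reductase Ifi30 and the ubiquitin ligase March8, 1 of 9 tested genes fell and 0 rose by edgeR, with a median log2 fold change of 0.078. At an unadjusted p under 0.05, 3 were higher, Ctsh (0.30 ± 0.10), Ifi30 and March8 (0.33 ± 0.15), and 1, Ctsb, was lower. Ctsb, the lysosomal protease cathepsin B, averaged 1900 ± 95.7 CPM in Het and 2770 ± 169 CPM in WT, with every Het library below every WT library (log2 fold change -0.54 ± 0.07, edgeR adjusted p = 3.63e-04). Its call was lost in the Xist-positive libraries alone (edgeR adjusted p = 0.165). Ctsb is expressed in most cells and is not specific to antigen presentation. Ctss, the cathepsin that trims the invariant chain in leukocytes, was at 5.54 ± 2.33 CPM in Het and 4.85 ± 1.89 CPM in WT (0.20 ± 0.30, edgeR adjusted p = 0.787). Ifi30, a thiol reductase of the endosome, was at 49.1 ± 8.24 CPM in Het and 35.5 ± 7.92 CPM in WT (0.47 ± 0.15, edgeR adjusted p = 0.0844) and passed by DESeq2 (adjusted p = 0.0441). The protease Ctsl, which also processes the invariant chain, and Lgmn, an asparagine endopeptidase, had log2 fold changes of 0.08 ± 0.09 and -0.13 ± 0.08.

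Of the costimulatory genes and class II receptors, 3 of 6 were tested, with 0 higher and 0 lower by edgeR, DESeq2, limma voom and limma trend and 0 at an unadjusted p under 0.05. Cd4, the T cell coreceptor that binds class II, had 67 counts in all libraries.

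**Figure D4:**
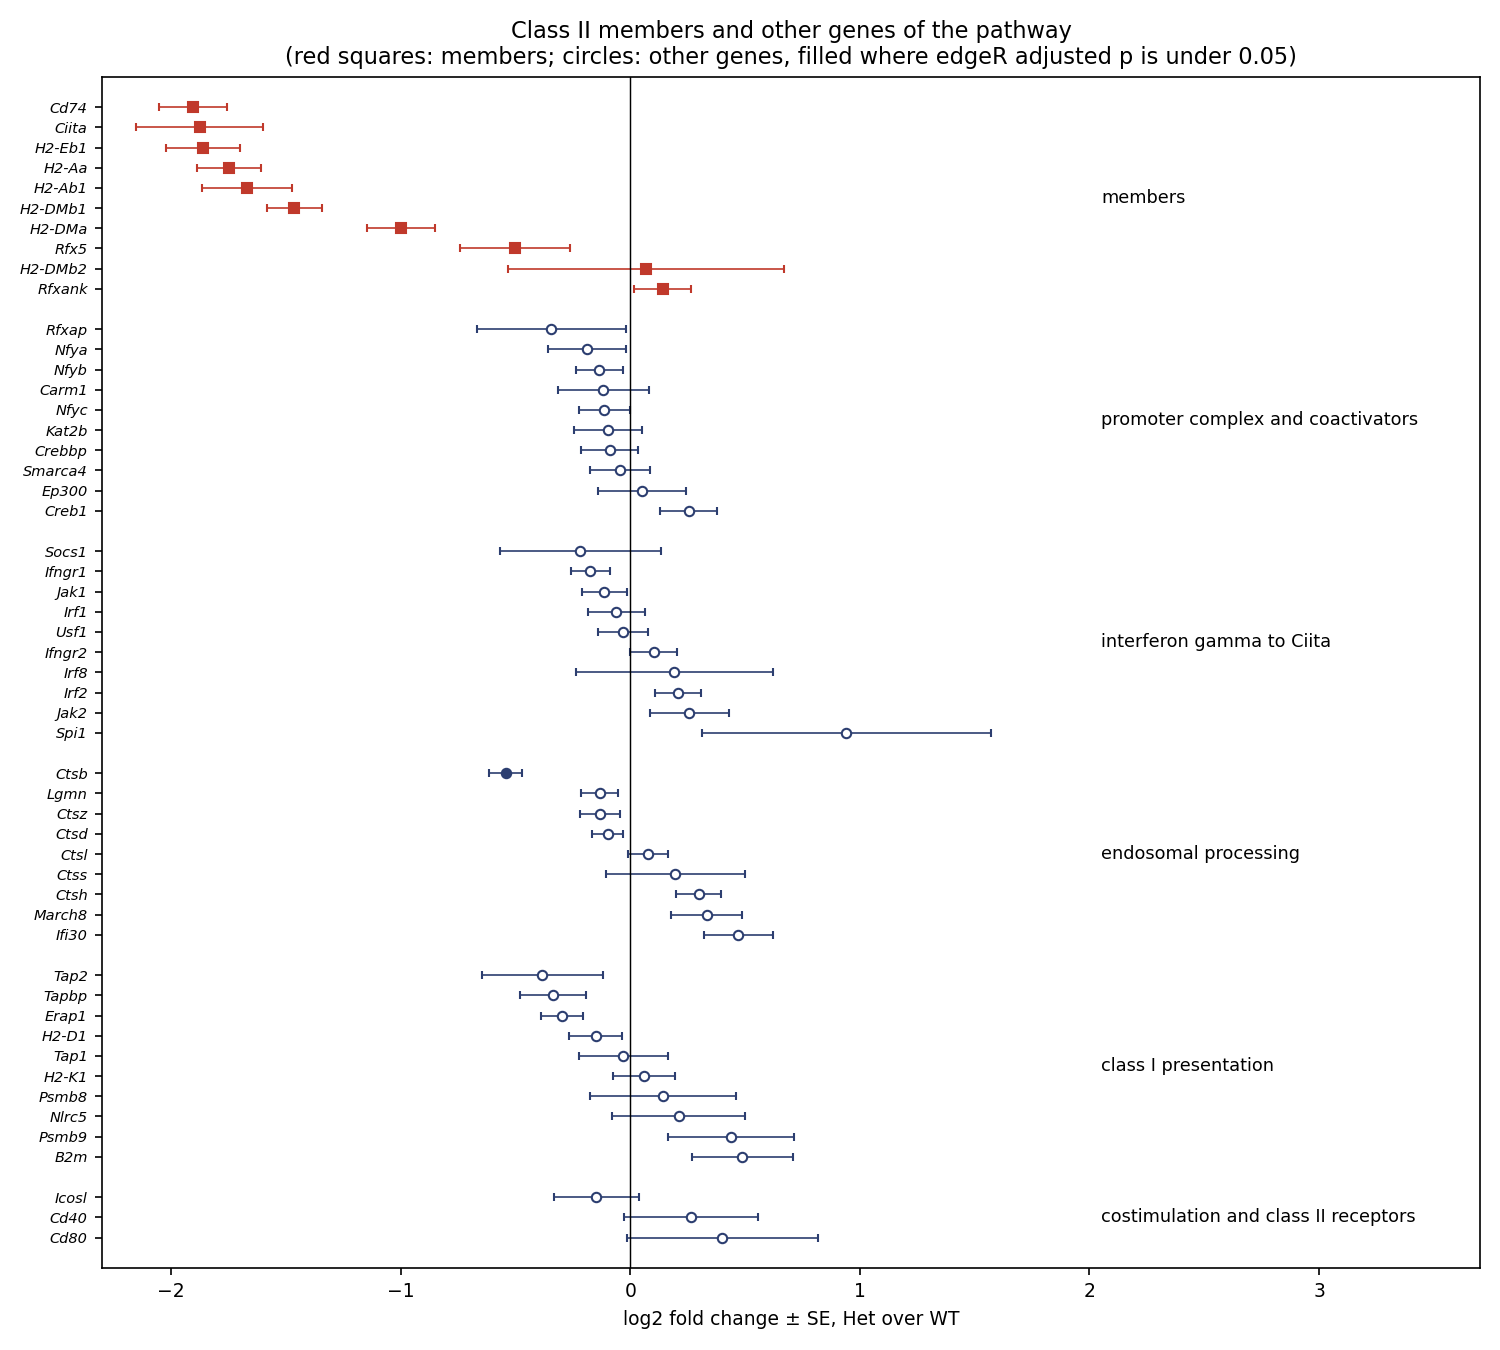
Log2 fold change ± SE of Het over WT (x axis) for the 10 members (red squares) and the tested genes of 5 related lists (circles, filled where the edgeR adjusted p is under 0.05). The members reach -1.90, whereas Ctsb at -0.54 is the 1 filled circle.

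Markers of the cells that carry class II were mostly not past the threshold. The pan-leukocyte list of 8 markers summed to 58.9 to 96.5 CPM in Het (median 83.5) and 42.1 to 93.6 CPM in WT (median 66.8); 0 of 8 passed by edgeR, DESeq2, limma voom and limma trend, 1 was higher at an unadjusted p under 0.05, and the median log2 fold change was 0.31. The largest part of this sum was Arhgdib, at 30.5 ± 4.38 CPM in Het and 24.7 ± 6.27 CPM in WT. Ptprc, the leukocyte common antigen CD45, was at 2.65 ± 1.61 CPM in Het and 2.41 ± 1.38 CPM in WT (log2 fold change 0.13 ± 0.46, edgeR adjusted p = 0.922). The macrophage list of 13 markers summed to 84.99 to 190.8 CPM in Het (median 123.4) and 64.5 to 157.9 CPM in WT (median 90.3). Among its 11 tested genes the median log2 fold change was 0.43, 10 were above 0 and 1 passed: Mertk, a receptor for engulfing dying cells, averaged 33.4 ± 4.24 CPM in Het and 23.0 ± 2.21 CPM in WT (0.54 ± 0.11, edgeR adjusted p = 0.00979). Mertk also had the highest mean of the macrophage list in both groups, so it weighs most in the sum. Mertk did not pass with the replicate block, in the fit without WT 1 and WT 2, with the column-name number and among Xist-positive libraries, at edgeR adjusted p up to 0.0944. Adgre1, the macrophage antigen F4/80, was at 9.499 ± 5.62 CPM in Het and 5.76 ± 3.06 CPM in WT (0.73 ± 0.47, edgeR adjusted p = 0.433).

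Dendritic cell markers were mostly near 0. The list of 10 summed to 19.8 to 30.1 CPM in Het (median 23.7) and 23.6 to 31.2 CPM in WT (median 25.1), most of it from Zbtb46, which endothelium also expresses. Of 4 tested genes 0 passed by edgeR, DESeq2, limma voom or limma trend, and 0 had an unadjusted p under 0.05; their median log2 fold change was -0.23, with 1 above 0. Flt3, a receptor found on dendritic cell precursors, had 18 counts over all libraries and 0 in every WT library. B cell markers summed to 9.08 to 12.2 CPM in Het (median 10.3) and 6.94 to 23.5 CPM in WT (median 15.1). Of 4 tested B cell markers 0 passed by edgeR, with 0 at an unadjusted p under 0.05, and DESeq2 called 1, Ighd, lower; the median log2 fold change was -0.44, with 0 above 0. Cd79a, a subunit of the B cell receptor, was at 0.673 ± 0.325 CPM in Het and 1.03 ± 0.202 CPM in WT (log2 fold change -0.62 ± 0.41).

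Tissue from outside the vessel wall was also looked for. The T cell list summed to 3.24 to 35.1 CPM in Het, with Het 3 and Het 6 highest, and 4.41 to 11.0 CPM in WT, and the monocyte list to 2.29 to 6.64 CPM in Het and 3.11 to 7.56 CPM in WT; 0 genes of either passed by edgeR, DESeq2, limma voom or limma trend or at an unadjusted p under 0.05. Cd3e had 11 counts in all. The thymus list summed to 8.003 to 17.4 CPM in Het, also highest in Het 3 and Het 6, and 8.92 to 12.2 CPM in WT, most of it from Ccl25. Over all libraries Dntt had 86 counts, Rag1 23, Rag2 15 and Ptcra 12, while Foxn1 and Aire had 0 in every library. Skeletal muscle markers summed to 8.54 to 15.8 CPM in Het and 18.8 to 39.5 CPM in WT, with no overlap, as for 7 of the class II genes. Most of that sum was the fast troponin Tnnt3, at 8.75 ± 2.56 CPM in Het and 26.95 ± 8.32 CPM in WT, which fell (log2 fold change -1.63 ± 0.23, edgeR adjusted p = 6.49e-04; not past with the sex score or in the Xist-positive libraries). The other tested muscle markers, Acta1 and Mylpf, had log2 fold changes of 0.55 ± 0.39 and 0.07 ± 0.26, and the median of the 3 was 0.068. Ckm did not pass the filter, with 78 counts in all libraries. It was at 0.130 ± 0.059 CPM in Het and 0.895 ± 0.732 CPM in WT, and the groups overlapped. DESeq2 called 2 muscle markers lower, Tnnt3 and Ckm (Ckm log2 fold change -2.81, DESeq2 adjusted p = 0.0162). Erythroid markers summed to 377.7 to 906.6 CPM in Het and 666.6 to 1565 CPM in WT, and adipocyte markers to 275.6 to 1912 CPM in Het and 707.3 to 2560 CPM in WT; both overlapped. The part of these tissues in the class II difference was not tested.

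Class II transcripts were therefore set against the marker counts of the same library. The counts of Cd74 and the 3 chains were 1.01 to 1.79 times the summed macrophage marker counts in Het, and 2.96 to 9.95 times in WT. They were 1.80 to 2.58 times the pan-leukocyte marker counts in Het and 4.99 to 15.2 times in WT. For dendritic cells only the 4 tested markers of the list were used, with most of their counts from Zbtb46. Against these they were 5.47 to 13.04 times in Het and 20.4 to 36.5 times in WT. None of the 3 ratios overlapped between the groups, with WT 4 the lowest WT library in each. With the macrophage score as a covariate the log2 fold change was -1.88 ± 0.17 for Cd74, -1.89 ± 0.14 for H2-Aa, -1.96 ± 0.18 for H2-Eb1 and -1.88 ± 0.31 for Ciita. Without it these were -1.90, -1.75, -1.86 and -1.88. The members were chosen for their difference, so these ratios and fits are a description.

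**Figure D5:**
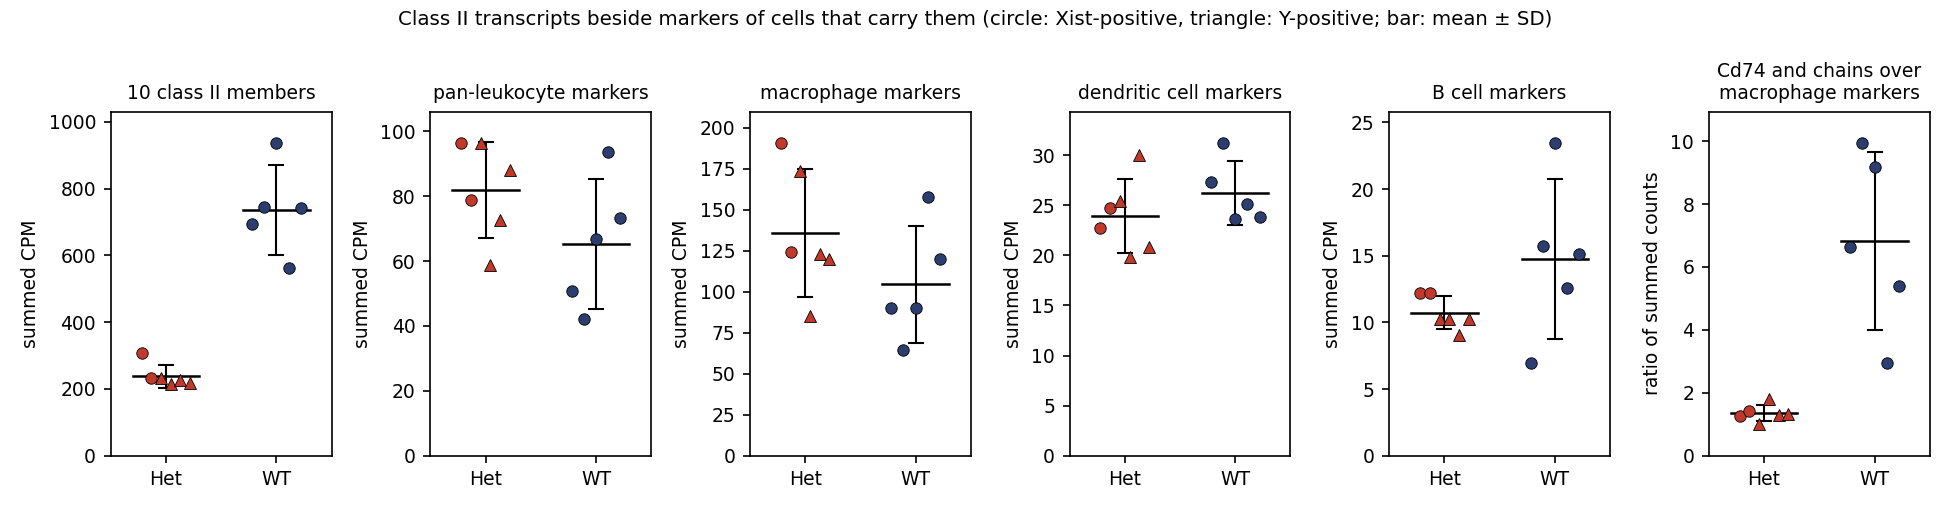
Summed CPM (y axes, from 0) of the 10 class II members and of 4 marker lists, and the ratio of the counts of Cd74 and the 3 chains to macrophage marker counts, in Het (red, left) and WT (blue, right); circles are Xist-positive and triangles Y-positive libraries, and bars give mean ± SD. The member sum is 215.6 to 307.4 CPM in Het and 563.9 to 937.6 CPM in WT, while all 4 marker lists overlap.

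Variation among mice of the same genotype was not used to choose the genes. The mean log2 CPM of Cd74, H2-Aa, H2-Ab1 and H2-Eb1, with its group's mean taken off, ran from -0.30 in Het 4 to 0.48 in Het 1 and from -0.31 in WT 4 to 0.39 in WT 3. Over the 11 libraries H2-DMa followed this score with a Pearson r of 0.67 (Spearman's rho 0.59), H2-DMb2 with 0.66 (rho 0.42) and H2-DMb1 with 0.53 (rho 0.46), whereas Rfxank had 0.11 (rho -0.036) and Ciita -0.0026 (rho -0.082). Rfx5 ran against it, at -0.89 (rho -0.78). H2-DMb2 had 1 to 29 counts per library, Ciita 15 to 197 and Rfx5 23 to 74, so counting error weighs on all 3 values. These are descriptions of 11 libraries whose group means were taken off, and carry no p. Taking off the group mean leaves sex in, since Het holds both Xist-positive and Y-positive libraries. Mean H2-Ab1 was 36.5 CPM in the Xist-positive and 24.1 CPM in the Y-positive Het libraries, and mean Cd74 125.0 and 98.8 CPM. The part of sex in these r values, and in those of the next paragraph, was not tested.

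Among the 13895 other genes that averaged 1 CPM or more, the pattern most like this score was that of the predicted genes Gm15892 (r of 0.89), Gm15408 and Gm20633 (0.88 each), followed by Med14, a subunit of the Mediator complex (0.88), Tpm2, a tropomyosin of contractile cells (0.86), Vcp-rs and Gpatch1 (0.85 each), Wdpcp and Gfm1 (0.84 each) and Trmt11 (0.83). Of these 10, 5 were also among the 10 highest by Spearman's rho. The pan-leukocyte, macrophage and dendritic cell scores, over their tested markers, had an r of 0.19, 0.27 and 0.44. The 10 genes were picked as the highest of 13895 over 11 libraries. Their r therefore cannot be compared with that of lists not picked by r.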

How the data were processed

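RNA from 11 aortic arches was counted per gene, with each library placed in Het or WT by its label. Per the labels' protocols, TriPure and PureLink served for extraction, and unstranded Nextera XT libraries were pooled and read as single 75-base reads in 2 runs, which the files do not separate. GRCm38, limma, edgeR, DESeq2 and STAR 2.5.2a stand in the submitters' processing notes without their roles. Which counter and annotation were used is not given in the sources used here. In whole numbers, the authors' deposited count table gives counts for 48733 rows, of which 24 name no mouse gene, hold 2.64e-05 to 8.06e-05 percent of counts and were left out. The authors also deposited a filtered count table of 19629 rows (rows left out have at most 5 counts) and a TMM-normalized CPM signal, which sums to 966683 to 1026471 per library and served only in alternatives.

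Genes were filtered by filterByExpr (minimum count 10, minimum total 15), scaled by TMM and tested by edgeR's robust quasi-likelihood test (edgeR 4.0.16, R 4.3.3), Het against WT, without covariates, with Benjamini-Hochberg adjustment over 14757 genes. The common biological coefficient of variation was 0.215. Alternatives were RLE and upper quartile scaling, DESeq2 1.42.0, limma voom and trend (limma 3.58.1, pseudocounts of 1 and 0.5), a replicate block, other filters, covariates (sex score, column number and leukocyte, macrophage and dendritic cell scores), the libraries with at least 100 Xist counts, the fit without WT 1 and WT 2, and each library left out. For the sex score, the log2 CPM of Xist was subtracted from the mean over Uty, Kdm5d, Eif2s3y and Ddx3y. Shared replicate numbers did not pair the libraries. Floors cover counting error only. Symbols, positions (counted from 1) and exon lengths came from GENCODE M21, and promoters from RefSeq.

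The members and lists were chosen with earlier results of these data known. The rule named all members, the up to 4 genes per list and direction with the smallest p past the threshold and at least 1 CPM, a set of pathway and marker genes, of which 1 was left out of its list and is not reported here, and the 10 genes most like the chains; Hspa2, Gpr108, Ube2c, H2-D1, H2-K1, B2m, Erap1, Ctsh, March8, Acta1, Mylpf, Ccl25, Dntt, Rag1, Rag2, Ptcra, Actc1, Tnnt2, Myh6, H2-Ea-ps, Ifng, Zbtb46, Ighd, Aire, Myh11 and Acta2 and the opposite-strand genes were named after their values were seen. Ckm and Arhgdib were also named after their values were seen. On simulated counts for 14757 genes, Het against WT, 28.4 percent of the 67 genes altered 1.5-fold were recovered, 59.7 percent of the 67 altered 2-fold and 90.9 percent of the 66 altered 4-fold, and 6 of 125 calls were false.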

Additional observations from a re-analysis of the deposited data

Results flagged for a closer look

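Of 80 groups of values examined, 3 held a sample far from the rest of its own group, and chance alone gives about 1 in 20. Cd74 in Het 1 was at 144.1 CPM, while the other Het libraries lay at 91.2 to 105.9 CPM; without Het 1 its log2 fold change was -2.01, against -1.90 with all libraries. H2-DMb2 in WT 4 was at 0.293 CPM, while the other WT libraries lay at 0.769 to 0.895 CPM, and this value rests on 4 counts. The adipocyte markers summed to 2560 CPM in WT 5, while the other WT libraries lay at 707.3 to 905.8 CPM; WT 5 also had the lowest Ciita and the highest H2-DMb2 of its group.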

How the results depend on the processing

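The count of members lower in Het, 7, was 7 in the 27 alternatives except 6 with the sex score and 4 among Xist-positive libraries, and the median log2 fold change of the 10 members, -1.57, ranged from -1.67 to -1.36. Genes higher over the whole table (391) numbered 657 with DESeq2, 62 with the sex score, 19 in the Xist-positive libraries, 206 with the column number and 238 without WT 1 and WT 2, and 229 to 444 with 1 library left out, lowest without WT 2. Genes lower (351) numbered 640, 61, 15, 209 and 194 in the same settings, and 229 to 415 with 1 library left out, also lowest without WT 2. Related pathway genes higher (0) numbered 1 with DESeq2 (Ifi30), 1 with the macrophage score (March8) and 0 to 1 with 1 library left out (Psmb9 without WT 4, Ifi30 without WT 5); those lower (1) numbered 2 with DESeq2 and 0 in the Xist-positive libraries. Marker genes higher (3) numbered 1 with the sex score, 0 with the column number and 0 among Xist-positive libraries; those lower (3) numbered 6 with DESeq2, 0 among Xist-positive libraries and with the sex score, and 5 with the pan-leukocyte score. Of the named genes, Cnn1 missed the threshold in 14 of 27 alternatives and Col15a1 in 16. The causes were not tested. By the longest transcript in place of all exons, 2 members, H2-DMa and Rfxank, exchanged ranks in WT, and 0 moved in Het. Depth limits H2-DMb2, at 1 to 29 counts.

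The replicate numbers in the labels share no stated litter or day, and deviations of same-numbered libraries correlated at -0.27 to 0.065, with 2 of 5 best with their own number. With the replicate block 177 genes were higher, 152 lower, 7 members lower and 0 marker genes higher; a call lost under it is not read as a weaker effect.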

Other observations

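Markers of the vessel wall and of its surroundings had few genes past the threshold. Of 7 smooth muscle markers 1 fell, the calponin Cnn1 (log2 fold change -0.51 ± 0.13), while Acta2 and Myh11 did not pass. Of 6 fibroblast markers, Pi16, a marker of adventitial fibroblasts, fell to 88.5 ± 9.06 CPM in Het, against 136.4 ± 19.9 CPM in WT (not past with the sex score or in the Xist-positive libraries), and Col15a1, a collagen of the basement membrane zone, averaged 101.2 ± 14.3 CPM in Het and 75.1 ± 11.9 CPM in WT. Of 4 tested cardiomyocyte markers, Ryr2, the calcium release channel, was higher in Het at 6.58 ± 1.23 CPM, against 3.13 ± 1.05 CPM in WT, and 0 were lower; it did not pass with the replicate block, the sex score, the column number or in the Xist-positive libraries. The other 3, Actc1, Tnnt2 and Myh6, had log2 fold changes of -1.02, -0.43 and -0.18, of which 2, Actc1 and Tnnt2, had an unadjusted p under 0.05, and the list's median was -0.31. Among 8 endothelial, 5 adipocyte, 5 erythroid, 3 Schwann cell and 1 thymus gene tested, 0 passed by edgeR; at an unadjusted p under 0.05, 1 endothelial gene was higher and 4 erythroid genes were lower, and DESeq2 called 1 erythroid gene lower. The erythroid list had a median log2 fold change of -0.72.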
